A study of Mus musculus with 15 samples.

Results

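Vitamin D, klotho and calcium handling were followed through 10 genes, taken by symbol from a table that lists 56748 genes: *Cyp27b1*, *Cyp24a1*, *Vdr*, *Kl*, *Pth1r*, *Calb1*, *S100g*, *Trpv5*, *Slc8a1* and *Casr*. From mouse kidneys and lungs 15 RNA libraries were sequenced, 3 in each of 5 groups, and all mice were male C57Bl/6 animals of the wild type. The kidneys came from mice aged 10 to 12 weeks that were euthanized at day 28. WTK mice had received vehicle in place of folic acid and their labels name no antibody. IgGK and LepK mice had received a single dose of folic acid at 200 mg/kg. A control IgG followed in IgGK and a neutralizing leptin antibody in LepK. The lungs came from mice aged 12 weeks that had received bleomycin at 1.5 units/kg and were euthanized at day 14, with the control IgG in IgGL and the leptin antibody in LepL. Either antibody was dosed at 10 mg/kg every other day. The antibody course ended before day 28 in the kidney mice and ran up to day 14 in the lung mice. No vehicle lung was among the samples, so the lungs hold no measure of the injury itself. Whole organs were used, in which fewer cells of a type and less RNA per cell cannot be told apart.

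The kidney makes the active form of vitamin D and decides how much filtered calcium and phosphate return to the blood. *Cyp27b1* encodes the enzyme that activates 25-hydroxyvitamin D and *Cyp24a1* the enzyme that breaks the hormone down, while *Vdr* encodes the nuclear receptor through which it acts. Klotho, the product of *Kl*, is the coreceptor that lets the bone hormone FGF23 act on the tubule, where FGF23 and parathyroid hormone, through its receptor *Pth1r*, lower phosphate uptake. In the distal tubule calcium enters the cell through the channel TRPV5, is carried by the calbindins encoded by *Calb1* and *S100g*, and leaves through pumps and the sodium-calcium exchanger encoded by *Slc8a1*. *Casr* encodes the receptor that senses extracellular calcium, in the kidney mainly in the thick ascending limb.

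Reference windows of 250 bases before the annotated start were found in RefSeq (GRCm38.p6) for 8 of the 10 genes, all but *Cyp24a1* and *Calb1*. They were searched on both strands for a short element of which the vitamin D receptor binds pairs, written AGGTCA or, with other letters, GGGTCA or else AGTTCA or finally GGTTCA, and for a pair in the same direction 3 bases apart. Only *S100g*, *Kl* and *Vdr* held elements, and their windows are shown for that reason alone. *S100g* held 3 elements, 220, 149 and 107 bases before the start, *Kl* held 1 at 93 bases and *Vdr* held 1 at 91 bases, capitals marking each of them, and a site on the other strand reads as its reverse complement. The windows lie at chrX:162964600-162964849 on the minus strand, chr5:150952357-150952606 on the plus strand and chr15:97908297-97908546 on the minus strand.
S100g: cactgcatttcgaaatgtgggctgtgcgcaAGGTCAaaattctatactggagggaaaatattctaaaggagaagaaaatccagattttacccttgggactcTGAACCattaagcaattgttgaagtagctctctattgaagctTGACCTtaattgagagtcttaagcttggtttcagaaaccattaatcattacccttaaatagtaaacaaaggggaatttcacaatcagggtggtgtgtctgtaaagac
Kl: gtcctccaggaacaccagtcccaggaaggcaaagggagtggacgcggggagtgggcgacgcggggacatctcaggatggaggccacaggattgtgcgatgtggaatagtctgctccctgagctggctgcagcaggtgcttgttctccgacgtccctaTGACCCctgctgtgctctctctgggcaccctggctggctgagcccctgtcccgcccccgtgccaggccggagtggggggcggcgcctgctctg
Vdr: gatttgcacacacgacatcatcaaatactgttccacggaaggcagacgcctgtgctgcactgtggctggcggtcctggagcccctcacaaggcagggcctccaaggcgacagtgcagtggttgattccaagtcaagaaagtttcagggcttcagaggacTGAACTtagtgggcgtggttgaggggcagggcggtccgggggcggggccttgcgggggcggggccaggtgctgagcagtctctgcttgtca
No window of the 8 genes held the spaced pair, which stood in 0.0396% of the 32851 mouse windows searched, whereas a single element stood in 38.6% of them. The 3 of 8 genes with an element are thus a description of these letters only.

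Total counts ranged from 25913969 to 38924788 per library, so that 1 count equals 0.0257 to 0.0386 CPM (counts scaled to a common library total). Levels below are CPM scaled by edgeR's TMM factors within each organ, and calls required both an adjusted p under 0.05 (Benjamini-Hochberg, over all genes tested) from edgeR's quasi-likelihood test and a log2 fold change of more than 0.5 in size. The kidneys carried the kidney's markers: the summed level of 8 proximal tubule genes was 9849 to 40287 CPM in kidney and 3.85 to 7.03 CPM in lung. That of 5 alveolar type 2 genes was 6366 to 23353 CPM in lung and 207 to 544 CPM in kidney. Values of the libraries are given in the order of their replicate numbers.

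Per gene length, the 10 genes covered a wide range of levels in the vehicle kidney. In the deposited FPKM values, *S100g* led with 762 ± 107 (SD, n = 3), followed by *Pth1r* with 239 ± 3.93 and *Kl* with 70.1 ± 4.32. *Calb1* at 51.1 ± 10.3 FPKM and *Vdr* at 45.8 ± 0.337 FPKM overlapped, as did *Casr* at 3.34 ± 0.334 and *Trpv5* at 3.31 ± 0.113. *Cyp24a1* stood between these pairs at 29.3 ± 4.68 FPKM with *Slc8a1* at 4.30 ± 0.720, and *Cyp27b1* was lowest at 2.18 ± 1.14. The order differed in IgGK, where *Calb1* at 46.1 ± 1.41 FPKM stood above *Vdr* at 23.2 ± 0.980 and *Kl* at 21.5 ± 2.59. *Vdr* and *Kl* overlapped each other there, and *Casr* was lowest at 2.14 ± 0.106 FPKM.

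IgGK against WTK asks what folic acid injury, with the control IgG, did to these genes. The WTK labels name no antibody, so the part of the IgG in this difference cannot be told from that of folic acid. The injured kidneys held 31.4% of the vehicle level of *Kl*, 46.6% of that of *Pth1r* and 51.6% and 52.1% of those of *Cyp24a1* and *Vdr*, more *Cyp27b1*, and levels of *Calb1*, *S100g*, *Trpv5* and *Slc8a1* that were not called. Of the 10 genes, 1 was called higher and 5 lower, where 21.7% and 15.6% of the 19593 genes tested were called higher and lower.

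*Cyp27b1* (chr10:126884119-126888875 on the build of the table, GRCm39), the activating enzyme, had normalized levels of 9.59, 2.80 and 8.0 CPM in WTK and of 12.9, 15.4 and 13.1 CPM in IgGK. The groups did not overlap, and the second WTK library stood well below the other two. The gene rose by 1.02 ± 0.34 on the log2 scale (± SE; adjusted p = 0.0219, edgeR). Without the second IgGK library the adjusted p was 0.0587 at a log2 fold change of 0.94, and DESeq2 gave 0.0512, so this call is at the edge of the threshold. Over 17 alternative settings the log2 fold change of *Cyp27b1* ranged from 0.65 to 1.46, and it was called in 15.

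*Cyp24a1* (chr2:170324628-170339065), the degrading enzyme, had 114, 149 and 115 CPM in WTK and 64.1, 66.4 and 64.2 CPM in IgGK. Every injured kidney was below every vehicle kidney, and the spread within IgGK was small. *Cyp24a1* fell by 0.95 ± 0.10 on the log2 scale (adjusted p = 5.6e-06, edgeR). *Pfdn4* overlaps it on the other strand, with 259 to 424 counts in the kidneys, and the libraries do not keep strand, so reads in the shared stretch cannot be told apart.

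The 2 enzymes thus moved in opposite directions, and their ratio within a library does not depend on how libraries are scaled. This ratio of FPKM values, chosen after the values were seen, was 8.56, 38.5 and 10.4 of *Cyp24a1* over *Cyp27b1* in WTK and 3.59, 3.12 and 3.56 in IgGK. LepK stood in between with 5.53, 7.87 and 4.08. All WTK libraries were above all injured ones, and LepK was above IgGK in each library. With 3 libraries a group no exact permutation test can go below p = 0.1, and none was made.

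*Vdr* (chr15:97752306-97808511), the receptor, had 315, 314 and 309 CPM in WTK and 170, 157 and 162 CPM in IgGK. The vehicle kidneys were nearly the same, with a coefficient of variation of 0.971%. *Vdr* fell by 0.94 ± 0.06 on the log2 scale (adjusted p = 1.6e-07, edgeR), to 52.1% of the WTK mean.

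*Kl* (chr5:150876072-150917282) had 751, 844 and 776 CPM in WTK against 269, 214 and 262 CPM in IgGK. No other of the 10 genes lost as large a share of its level. Klotho message fell by 1.67 ± 0.12 on the log2 scale (adjusted p = 2.2e-07, edgeR), to 31.4% of the WTK mean.

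*Pth1r* (chr9:110551153-110576213), the parathyroid hormone receptor, had 862, 831 and 845 CPM in WTK against 423, 356 and 406 CPM in IgGK. It fell by 1.10 ± 0.08 on the log2 scale (adjusted p = 3.7e-07, edgeR), to 46.6% of the WTK mean. *Cyp24a1*, *Vdr*, *Kl* and *Pth1r* were called lower in each of the 17 alternative settings tried.

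The 4 genes of the distal calcium route were not called. *Calb1* (chr4:15881264-15908064), a cytosolic calcium carrier, had 247, 364 and 286 CPM in WTK and 283, 280 and 268 CPM in IgGK. The groups overlapped, the WTK libraries spread far more than those of IgGK (SD 59.7 and 7.64 CPM), and the log2 fold change was -0.11 ± 0.11 (adjusted p = 0.426, edgeR). Its sign turned to 0.33 when libraries were scaled by their totals alone and to 0.056 without the second WTK library.

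*S100g* (chrX:161744988-161747595), the small calbindin, had 372, 468 and 484 CPM in WTK against 304, 348 and 301 CPM in IgGK. All IgGK libraries were below all WTK libraries, but the log2 fold change of -0.48 ± 0.10 (adjusted p = 0.00112, edgeR) was just inside the fold threshold. It was called without the first WTK library, at -0.58, and without the second IgGK library, at -0.54. *Ctps2* overlaps *S100g* on the other strand, with 1002 to 1520 counts in the kidneys against 8962 to 18511 for *S100g*.

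*Trpv5* (chr6:41629107-41657703), the entry channel, had 13.5, 12.9 and 12.5 CPM in WTK and 16.7, 18.4 and 16.0 CPM in IgGK. It was the only gene of the calcium route with every IgGK library above every WTK library, at a log2 fold change of 0.39 ± 0.11 (adjusted p = 0.00741, edgeR) that is under the fold threshold. *Slc8a1* (chr17:81680534-82045806), the exchanger, had 88.5, 117 and 88.2 CPM in WTK and 101, 108 and 110 CPM in IgGK. These overlapped, with a log2 fold change of 0.12 ± 0.10 (adjusted p = 0.315, edgeR). Scaling by library totals alone, under which all genes had a median log2 fold change of 0.48, put both past the threshold, *Trpv5* at 0.83 and *Slc8a1* at 0.57.

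*Casr* (chr16:36314058-36382503), the calcium sensor, had 20.5, 19.7 and 16.8 CPM in WTK and 12.8, 11.8 and 13.0 CPM in IgGK. It fell by 0.60 ± 0.14 on the log2 scale (adjusted p = 0.00339, edgeR), with no overlap between groups. Under scaling by library totals alone its log2 fold change was -0.16 (adjusted p = 0.301, edgeR) and the call was lost.

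**Figure D1:**
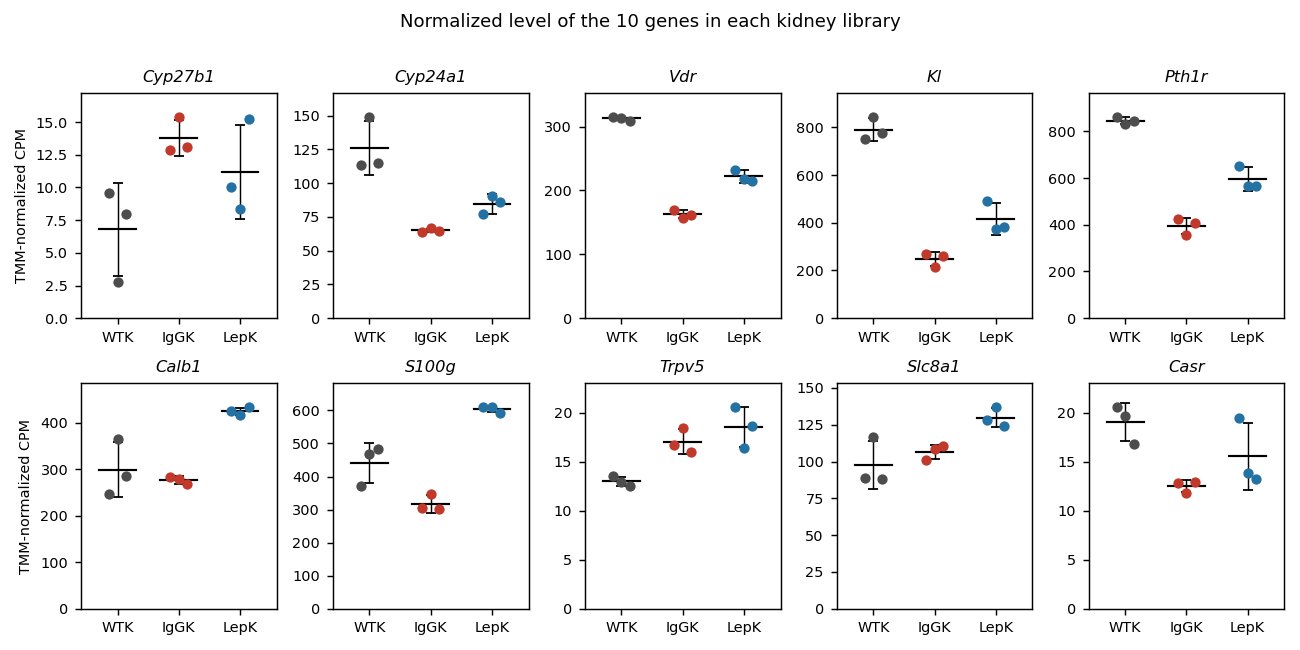
TMM-normalized CPM (vertical axes from 0) of each of the 10 genes in the 9 kidney libraries, with a point per library, a bar at the mean and the SD as whiskers, for WTK, IgGK and LepK. *Vdr*, *Kl*, *Pth1r* and *Cyp24a1* stand lower in all IgGK than in all WTK libraries with LepK in between, whereas *Calb1*, *S100g* and *Slc8a1* stand above both other groups in LepK.

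Markers of the tubule segments also differed between IgGK and WTK, to different extents, and their part in the results was not tested. All 8 proximal tubule markers were called lower in IgGK, and their summed level was 37805 to 40287 CPM in WTK and 9849 to 16044 CPM in IgGK. All 5 distal convoluted tubule markers were called lower too, with sums of 1737 to 1949 CPM in WTK and 833 to 1018 CPM in IgGK. Of 8 markers of the connecting tubule and collecting duct 2 were lower, *Aqp3* and *Klk1*, and of 5 markers of the thick ascending limb 1 was, *Ppp1r1b*. The 5 markers of injured tubule, *Havcr1* and *Lcn2* among them, were all higher, from 11.04 to 17.3 CPM in WTK to 541 to 585 CPM in IgGK, and so were all 7 macrophage markers. No marker of these lists is one of the 10 genes.

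LepK against IgGK asks what the leptin antibody did in the injured kidney. Of the 10 genes 4 were called higher and 0 lower, where 4.38% of all genes tested were called higher and 5.99% lower, and these 4 were *Kl*, *Pth1r*, *Calb1* and *S100g*. Leaving out each of the 9 kidney libraries in turn gave 4 higher and 0 lower each time. At an unadjusted p under 0.05 edgeR put 7 of the 10 genes higher and 0 lower (16.7% and 16.1% of all genes tested), and DESeq2 called 0 lower. Of all 10 genes, 8 had every LepK library above every IgGK library, including 4 that were not called, where 17.8% of all genes tested did.

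*S100g* changed the most, with 609, 609 and 593 CPM in LepK. These libraries were all above those of IgGK and of WTK, and their coefficient of variation was 1.50%. *S100g* rose by 0.93 ± 0.10 on the log2 scale over IgGK (adjusted p = 0.000149, edgeR), to 137% of the WTK mean.

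*Calb1*, the other carrier, had 425, 417 and 433 CPM in LepK. It rose by 0.62 ± 0.11 on the log2 scale over IgGK (adjusted p = 0.00238, edgeR), to 142% of the WTK mean. The highest WTK library, with 364 CPM, was below the lowest LepK library.

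*Kl* had 492, 374 and 382 CPM in LepK, all above IgGK and all below WTK. It rose by 0.74 ± 0.11 on the log2 scale over IgGK (adjusted p = 0.00106, edgeR), to 52.6% of the WTK mean. The first LepK library stood above the other two.

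*Pth1r* had 653, 568 and 567 CPM in LepK, likewise between the other groups. It rose by 0.59 ± 0.08 on the log2 scale (adjusted p = 0.000597, edgeR), to 70.4% of the WTK mean. Scaling by library totals alone, with a median of -0.19 over all genes, left *Kl* and *S100g* called, with *Pth1r* at 0.41 and *Calb1* at 0.44, both under the fold threshold.

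*Vdr* had 233, 218 and 215 CPM in LepK, above every IgGK and below every WTK library. Its log2 fold change over IgGK was 0.45 ± 0.06 (adjusted p = 0.000631, edgeR), under the fold threshold, at 71.0% of the WTK mean. *Cyp24a1*, with 76.8, 90.7 and 86.1 CPM in LepK, was placed likewise at 0.38 ± 0.10 (adjusted p = 0.0191, edgeR).

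*Cyp27b1* had 10.03, 8.34 and 15.2 CPM in LepK, spread over the range of both other groups. Its log2 fold change over IgGK was -0.30 ± 0.33 (adjusted p = 0.574, edgeR), an error too wide to tell a return towards WTK from none. *Trpv5* had 20.5, 16.4 and 18.6 CPM in LepK and overlapped IgGK, at 0.12 ± 0.10 (adjusted p = 0.468, edgeR), with a sign that turned to -0.064 under scaling by library totals alone.

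*Slc8a1* had 128, 137 and 124 CPM in LepK, all above IgGK, at a log2 fold change of 0.28 ± 0.10 (adjusted p = 0.0617, edgeR). *Casr* had 19.5, 13.8 and 13.3 CPM, also all above IgGK, at 0.31 ± 0.14 (adjusted p = 0.153, edgeR). The first LepK library alone reached the level of WTK for *Casr*.

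The segment markers moved with the antibody as well, and their part was not tested. The proximal tubule sum was 21540 to 29833 CPM in LepK with 6 of 8 genes called higher over IgGK, and the distal convoluted tubule sum was 1320 to 1566 CPM with 4 of 5 higher. Injured tubule and macrophage sums were 230 to 326 and 356 to 481 CPM, with 5 of 5 and 6 of 7 genes called lower. The thick ascending limb sum was 2327 to 2556 CPM in LepK, 1755 to 2016 CPM in IgGK and 2084 to 2201 CPM in WTK. Of its 5 genes 3 were called higher over IgGK and 0 over WTK. The connecting tubule and collecting duct sum was 2518 to 2935 CPM in LepK, 1563 to 1726 CPM in IgGK and 2581 to 2679 CPM in WTK, with 3 of 8 genes higher in LepK over IgGK. Its sums overlapped between LepK and WTK, but its genes were not alike there. *Scnn1b*, *Aqp2*, *Hsd11b2* and *Fxyd4* had every LepK library above every WTK library, at log2 fold changes of 0.40 to 0.49. The other 4 genes overlapped, and 0 of the 8 were called. Of all genes tested 25.6% had every LepK library above every WTK library.

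Ratios within a library set the 2 kinds of gene side by side without any scaling. *Calb1* over *Kl*, in FPKM and again chosen after the values were seen, was 0.634, 0.832 and 0.709 in WTK, 2.02, 2.52 and 1.98 in IgGK and 1.66, 2.15 and 2.19 in LepK. *S100g* over *Pth1r* was 2.63, 3.43 and 3.49 in WTK, 4.38, 5.97 and 4.51 in IgGK and 5.68, 6.54 and 6.38 in LepK. Both ratios were higher in all injured kidneys than in all vehicle kidneys, and the IgGK and LepK ranges overlapped in each.

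LepK against WTK shows where the treated kidneys stood relative to uninjured ones, and it shares WTK and LepK with the comparisons above. Of the 10 genes 2 were called higher and 3 lower, where 15.2% and 7.30% of all genes were. *Kl* fell by 0.93 ± 0.11 and *Cyp24a1* fell by 0.57 ± 0.10 on the log2 scale (adjusted p = 6.8e-05 and 0.000762, edgeR). *Pth1r* fell by 0.51 ± 0.08 (adjusted p = 0.000432, edgeR), and *Vdr* had -0.49 ± 0.06 (adjusted p = 7.4e-05, edgeR), on the other side of the fold threshold by a small margin. *Calb1* rose by 0.51 ± 0.11 and *Trpv5* rose by 0.51 ± 0.11 (adjusted p = 0.00314 and 0.00231, edgeR).

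*S100g* had 0.45 ± 0.10 and *Slc8a1* 0.41 ± 0.10 (adjusted p = 0.00281 and 0.00602, edgeR), not called. Every LepK library was above every WTK library for *Calb1*, *S100g*, *Trpv5* and *Slc8a1* and below every WTK library for *Cyp24a1*, *Vdr*, *Kl* and *Pth1r*, 4 of the 10 genes each way, where 25.6% and 24.6% of all genes tested did so. *Cyp27b1* had 0.72 ± 0.34 (adjusted p = 0.114, edgeR) and *Casr* -0.29 ± 0.14 (adjusted p = 0.131, edgeR), both with overlapping groups. Many of these values lie near the fold threshold: *Kl* was called in all 17 alternatives, *Cyp24a1* and *Trpv5* in 15, *Calb1* in 14 and *Pth1r* in 7. *Cyp24a1* was lost without the second WTK library (-0.43), *Trpv5* without the third WTK (0.49) or the first LepK library (0.44), and *Calb1* without the first WTK (0.39), the third WTK (0.48) or the third LepK library (0.49). *Pth1r* was lost at -0.47 to -0.50 without the first WTK library, the second or the third LepK library or any single IgGK library.

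**Figure D2:**
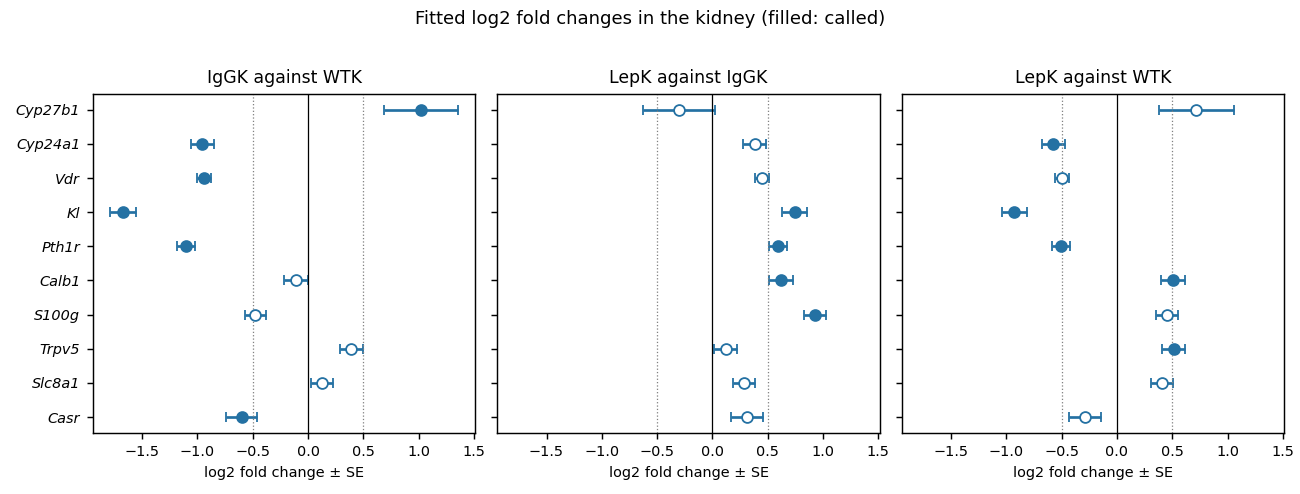
Log2 fold change ± SE (horizontal axis) of the 10 genes in 3 kidney comparisons from 1 edgeR fit of 9 libraries, with filled points for called genes and dotted lines at the fold threshold of 0.5 either way. Called genes number 6 for IgGK against WTK, 4 for LepK against IgGK, all on the right of 0, and 5 for LepK against WTK.

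Other genes of the pathway were read from 6 lists of 52 genes in all, of which 43 were tested in the kidney. In IgGK against WTK 10 were called higher and 22 lower, and in LepK against IgGK 7 were higher and 2 lower. Of all genes tested 21.7% and 15.6% were called higher and lower in the first comparison and 4.38% and 5.99% in the second, which are also the shares to set beside the single lists. With scaling by library totals alone these counts were 16 and 11, and 4 and 5. All genes then split into 7799 higher and 1180 lower for IgGK against WTK in place of 4253 and 3057. For LepK against IgGK they split into 409 and 2183 in place of 858 and 1174.

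Of 9 phosphate transport genes 1 rose and 7 fell in IgGK against WTK. *Slc34a1*, the main phosphate transporter of the proximal tubule, had 9457 ± 336 CPM (SD, n = 3) in WTK, 2287 ± 345 in IgGK and 4211 ± 577 in LepK, a fall of 2.05 and a rise of 0.88 on the log2 scale. *Slc34a3*, its relative, fell by 3.36 from 36.2 ± 5.25 CPM and rose by 1.32 in LepK. *Slc34a2*, the form best known from lung, went the other way, from 1.76 ± 0.360 CPM in WTK to 33.4 ± 0.774 in IgGK and 19.3 ± 3.15 in LepK.

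Of 10 genes of vitamin D activation, uptake and receptor partners 1 rose and 6 fell in IgGK, and 2 rose in LepK over IgGK. *Lrp2*, which encodes the endocytic receptor megalin that recovers vitamin D binding protein, fell by 1.53 and rose by 0.56 on the log2 scale in these 2 comparisons. Its partners *Cubn* and *Amn* are named for 1 comparison each, *Cubn* with a log2 fold change of -1.04 in IgGK and *Amn* with 0.51 in LepK over IgGK. *Gc*, which encodes the binding protein itself, rose by 2.03 ± 0.30 from 14.5 ± 1.95 CPM in WTK to 59.1 ± 11.2 CPM in IgGK.

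Of 8 tested genes of the klotho and FGF23 axis 3 rose and 3 fell in IgGK. In LepK over IgGK their log2 fold changes were -1.24 to 0.49. *Galnt3*, whose enzyme protects FGF23 from cleavage, fell by 1.19 and *Fgfr4* by 0.98, while *Fgfr2* rose by 0.73 on the log2 scale. *Fgf23* itself had 0 counts in all 9 kidney libraries. Of the parathyroid hormone list only 1 of 6 genes was tested in the kidney, and it was not called.

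Of 7 tested genes of other calcium transport and binding 3 rose and 1 fell in IgGK. *Trpv6*, the other epithelial calcium channel, rose by 2.44 from 1.87 ± 0.491 CPM in WTK and fell by 0.81 in LepK over IgGK, while *Trpv5* was called in neither comparison. *Stc2*, a stanniocalcin, rose by 2.92, and the calcium pump gene *Atp2b2* fell by 1.36 and rose by 0.89 in LepK. Of 8 tested genes of paracellular calcium and magnesium handling 2 rose and 5 fell in IgGK: *Egf*, made in the distal convoluted tubule, fell by 1.90 and rose by 1.18 in LepK, *Fxyd2* fell by 0.98 and rose by 0.63, and *Cldn16* rose by 0.75.

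**Figure D3:**
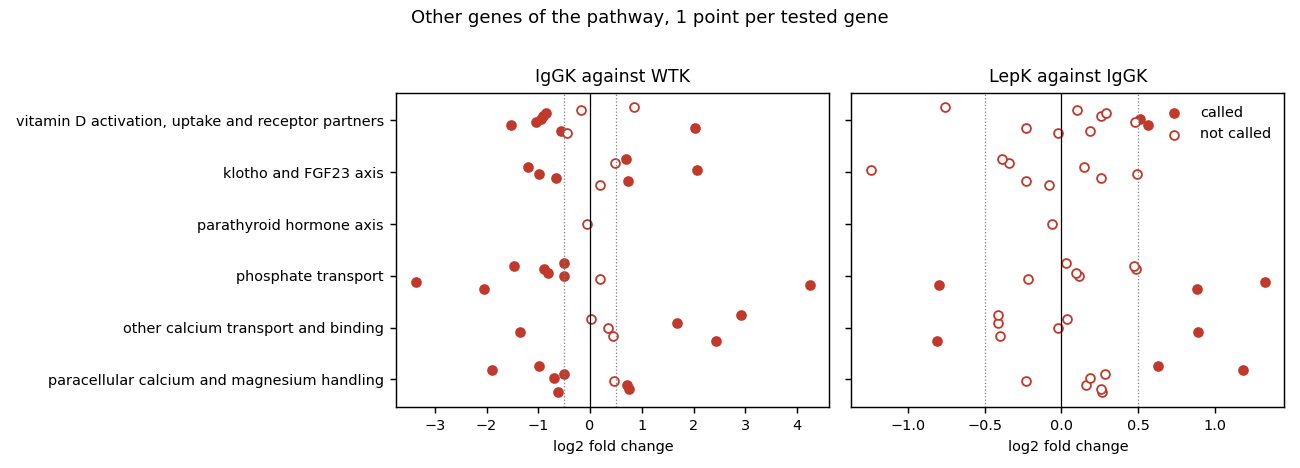
Log2 fold change (horizontal axes, which differ between the panels) of every tested gene of the 6 lists (rows), with filled points for called genes and dotted lines at the fold threshold. Of 43 genes 10 are called higher and 22 lower in IgGK against WTK, and 7 higher and 2 lower in LepK against IgGK.

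Over the 9 kidney libraries genes whose log2 level followed a gene of the 10 most closely are given as a description, since all points share the same 3 groups and their scaling. *Kl* was closely followed by *Mdh2* (Pearson r = 0.999), *Pth1r* was most like *Ces1e* (0.999) and *Ivd* (0.999), and *Vdr* like *Tln2* (0.999) and *Spg7* (0.998). *S100g* was most like *S100a1* (0.969), *Calb1* like *Npb* (0.943) and *Mme* (0.940), and *Trpv5* like *Fzd7* (0.971).

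In the lung, LepL against IgGL asks what the antibody did after bleomycin. *Cyp24a1*, *Calb1* and *Trpv5* were close to absent, with 4, 6 and 6 counts over all 6 lung libraries, and *Cyp27b1* had 2, 12 and 20 counts in IgGL and 2, 2 and 8 in LepL. None of these 4 passed the filter on low counts. Of the 6 tested 1 was called higher and 1 lower, where 1.78% and 2.36% of 19617 genes were called higher and lower. Per length, the mean FPKM of IgGK was 514 times that of IgGL for *Kl*, 32.0 times for *Pth1r*, 18.0 times for *S100g*, 13.2 times for *Vdr* and 2.87 times for *Slc8a1*, the gene nearest to an equal level in both organs.

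*Pth1r* had 13.8, 14.8 and 14.95 CPM in IgGL and 8.12, 8.96 and 6.01 CPM in LepL. Every LepL library was below every IgGL library, and *Pth1r* fell by 0.91 ± 0.19 on the log2 scale (adjusted p = 0.0391, edgeR). *Myl3*, a muscle gene that overlaps it on the other strand, had 719 to 2228 counts in IgGL and 2045 to 7488 in LepL against 239 to 532 for *Pth1r*, and summed cardiac markers were 152 to 225 CPM in IgGL and 227 to 641 CPM in LepL. Summed smooth muscle markers were 415 to 547 CPM in IgGL and 265 to 347 CPM in LepL, with *Acta2* called lower as 1 of 5 genes, and summed macrophage markers were 1542 to 2048 CPM in IgGL and 863 to 1258 CPM in LepL, with 2 of 7 called lower. The part of these in the values of *Pth1r* and *Vdr* was not tested.

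*S100g* had 21.4, 17.7 and 23.2 CPM in IgGL and 34.1, 30.7 and 38.9 CPM in LepL, with no overlap. It rose by 0.74 ± 0.14 on the log2 scale (adjusted p = 0.0369, edgeR). Summed alveolar type 2 markers were 6366 to 11801 CPM in IgGL and 17083 to 23353 CPM in LepL, with 3 of 5 called higher, and their part was not tested. Both calls rest on few libraries: without any one lung library other than the first of IgGL, the adjusted p of *Pth1r* was 0.0706 to 0.193 and that of *S100g* 0.0548 to 0.194 (edgeR).

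*Vdr* had 13.7, 15.2 and 14.8 CPM in IgGL and 11.3, 9.63 and 7.60 CPM in LepL, again with no overlap, at a log2 fold change of -0.62 ± 0.18 (adjusted p = 0.0760, edgeR). It passed the threshold in DESeq2 (adjusted p = 0.0199) and without the first IgGL library (0.0447, edgeR). *Slc8a1* had 49.3, 42.5 and 39.1 CPM in IgGL and 43.0, 39.5 and 37.7 CPM in LepL, which overlapped, at -0.12 ± 0.12 (adjusted p = 0.532, edgeR).

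*Kl* had 27, 14 and 17 counts in IgGL and 15, 18 and 15 in LepL, too few to show a moderate change, at a log2 fold change of -0.29 ± 0.49 (adjusted p = 0.739, edgeR). *Casr* had 12, 0 and 0 counts in IgGL and 7, 13 and 30 in LepL, at 1.97 ± 1.14 (adjusted p = 0.301, edgeR). The first IgGL library held all of that group's *Casr* counts.

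**Figure D4:**
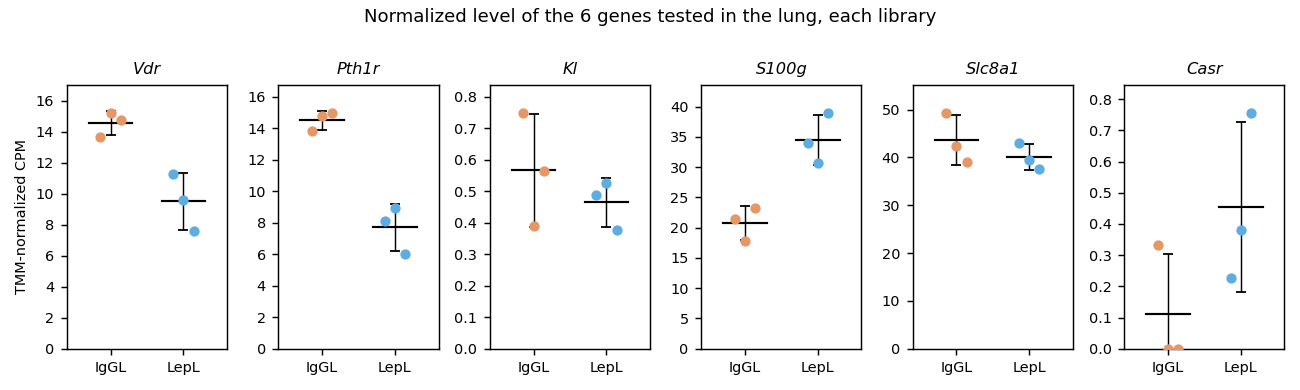
TMM-normalized CPM (vertical axes from 0) of the 6 genes tested in the 6 lung libraries, with a point per library, a bar at the mean and the SD as whiskers, for IgGL and LepL. *Vdr* and *Pth1r* stand lower and *S100g* higher in all LepL libraries, and *Kl* and *Casr* lie under 1 CPM.

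Other genes of the pathway in the lung split into 3 higher and 4 lower of 42 tested, where 1.78% and 2.36% of all genes were called. *Fgfr1* fell by 1.21 and *Fgfr2* rose by 1.17 on the log2 scale, both receptors of the fibroblast growth factor family. *Amn* fell by 2.37, *Slc20a1* by 0.80 and *Slc20a2*, like it a phosphate transporter, by 0.62, while *Atp2b2* rose by 1.76 and *Trpm6*, a magnesium channel, by 0.75. *Slc34a2*, which was high in these lungs at 629 ± 258 CPM in IgGL and 1394 ± 205 CPM in LepL (SD, n = 3), was not called at 1.15 ± 0.28 (adjusted p = 0.0544, edgeR).

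Whether the antibody difference itself differed between the organs was asked of a single edgeR fit over the 12 libraries of injured organs. Organ, injury, age, antibody course and day cannot be told apart in this fit. Of the 6 genes tested 2 passed an adjusted p under 0.05, where 9.85% of 17735 genes did. The difference, kidney minus lung, was 1.50 ± 0.18 for *Pth1r* (adjusted p = 0.00257, edgeR) and 1.06 ± 0.16 for *Vdr* (adjusted p = 0.00554, edgeR), with all LepK libraries above IgGK and all LepL libraries below IgGL for both. Each passed in all 20 alternatives. *Kl* had 1.04 ± 0.34 (adjusted p = 0.0668, edgeR) and *Slc8a1* 0.40 ± 0.13 (adjusted p = 0.0704, edgeR), not called. For *S100g*, called higher in both organs, the difference was 0.18 ± 0.16 (adjusted p = 0.484, edgeR), so no difference between the organs was shown.

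**Figure D5:**
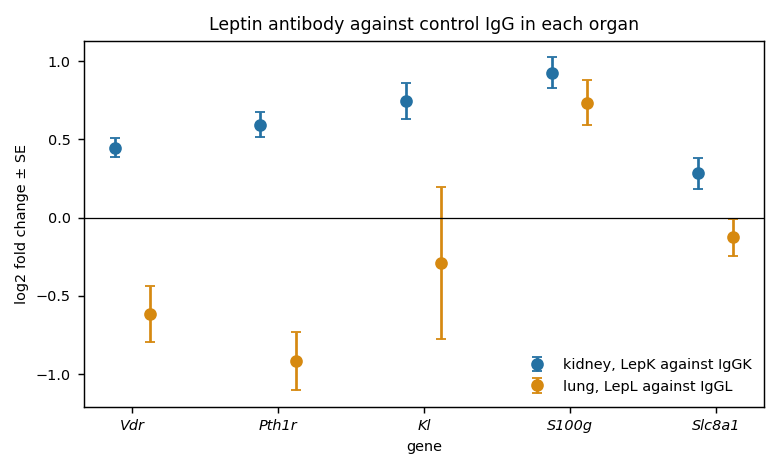
Log2 fold change ± SE (vertical axis) of leptin antibody against control IgG in kidney and lung for 5 genes (*Casr*, with 12 counts in all IgGL libraries, is left out). *Pth1r* lies at 0.59 in kidney and -0.91 in lung and *Vdr* at 0.45 and -0.62, whereas *S100g* lies above 0 in both, at 0.93 and 0.74.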

How the data were processed

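The authors deposited 1 table of whole-number read counts per gene for 15 poly(A)-enriched, non-directional RNA libraries, made by a sequencing company, with FPKM values beside them. The submitters' processing notes name the build GRCm39 and DESeq2, and the aligner and counter are not given in the sources used here. The FPKM values, used here for levels per length and for ratios, had been scaled by the authors to library sizes 1.02 to 1.46 times the total count. Columns of fold changes, p-values and group means of the authors' comparisons were not used, and 0 columns of single samples were left unmapped.

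Libraries were grouped by title, tissue and treatment labels. A description line that names a column disagreed with these and was not used. Whether a library is 1 mouse is not stated with each label, so p-values measure the spread between these samples. Replicates differed beyond counting noise (chi-square per gene 6.73 to 87.4).

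Counts were filtered with filterByExpr (minimum count 10, minimum total 15), scaled by TMM and fitted with glmQLFit and glmQLFTest in edgeR 4.0.16 (R 4.3.3) over the 9 kidney, the 6 lung or the 12 injured libraries. Scripts were tested on simulated data. The standard error is the log2 fold change over the square root of F. The 10 genes and all lists were chosen with earlier results of these data known. Named pathway genes are the 3 called genes of each list and comparison with the largest absolute log2 fold change and a mean of at least 1 CPM, and 2 genes most alike were sought for each of the 10, not all of which are named. *Fgf23*, *Slc34a2* in the lung and single segment markers outside the first 3 of a list were named after their values were seen. Alternatives were other scalings, DESeq2 1.42.0, other filters, other samples in the fit, a replicate block, no fold threshold and leaving out each library. Same-numbered libraries correlated at -0.0969 to 0.227 in their deviations from group means, not above 0.1 in every pair, so the numbers were not taken as pairing.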

Additional observations from a re-analysis of the deposited data

Results flagged for a closer look

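The leptin antibody difference itself differed between kidney and lung for 2 of the 6 genes tested, by the interaction term of the edgeR fit over 12 libraries. *Cyp27b1*, *Cyp24a1*, *Calb1* and *Trpv5* were not tested there, and 9.85% of all 17735 genes tested passed. For *Pth1r* the kidney log2 fold change exceeded that of the lung by 1.50 (adjusted p = 0.00257, edgeR), and for *Vdr* by 1.06 (adjusted p = 0.00554, edgeR). Organ, injury, age, antibody course and day cannot be told apart in this difference. *Myl3*, which overlaps *Pth1r* on the other strand, had 2 to 20 counts in the kidneys and 719 to 7488 in the lungs, and its part was not tested.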

How the results depend on the processing

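Over all alternatives, 646 values of single genes kept their direction and side of the threshold, 34 lost a call, 26 gained one and 4 reversed. With scaling by library totals alone, IgGK against WTK gave 3 of the 10 genes higher and 16 and 11 pathway genes higher and lower. LepK against IgGK then gave 2 of the 10 higher and 4 and 5 pathway genes higher and lower, and LepK against WTK gave 5 and 1 of the 10 and 10 and 5 pathway genes. Of all 19593 genes tested, this scaling called 7799 higher and 1180 lower for IgGK against WTK. It called 409 and 2183 for LepK against IgGK and 4778 and 514 for LepK against WTK. The same scaling reversed *Calb1* in IgGK against WTK (0.33), *Trpv5* in LepK against IgGK (-0.064) and the organ difference of *S100g* (-0.031), and leaving out the second WTK library reversed *Calb1* in IgGK against WTK (0.056, in a range of -0.23 to 0.056 over single libraries left out). The median of all genes then lay at 0.48, -0.19, 0.29 and -0.24 in the order of the 3 kidney comparisons and the organ difference.

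With DESeq2, 0 of the 10 genes were called higher in IgGK against WTK (2 at an unadjusted p under 0.05), 2 lower in LepL against IgGL with 5 pathway genes higher, and 4 passed for the organ difference. Of all 17735 genes, DESeq2 passed 1521 with a positive and 1463 with a negative organ difference, in place of 759 and 988 in the main fit. For IgGK against WTK it called 4344 higher and 3173 lower of 19593. With no filter on low counts LepL against IgGL gave 2 of the 10 lower and 6 pathway genes higher, and with other samples in the fit 2 lower, 6 pathway genes higher and 7 lower. With the replicate block, LepL against IgGL gave 0 of the 10 genes higher and 0 lower (edgeR; *Pth1r* adjusted p = 0.0823, *S100g* 0.0764) and 0 pathway genes either way (1 and 2 of the 10 and 7 and 8 pathway genes higher and lower at an unadjusted p under 0.05), and it moved no kidney count by over 1.5 times. The replicate numbers are only shared numbers, and not every library correlated best with its own number. Calls over all genes moved alongside these counts. For LepL against IgGL the main fit called 349 higher and 463 lower of 19617 genes. DESeq2 called 1242 and 1108, and the replicate block 1 and 3. With no filter 1515 and 1173 of 35071 genes were called, and with other samples in the fit 1069 and 998 of 21488. Of the 10 genes the main fit tested 6 in this comparison. Without a fold threshold the 10 genes gave 2 higher for IgGK against WTK and 4 higher for LepK against WTK, and pathway genes gave 13 higher and 5 lower for LepK against IgGK and 20 lower for LepK against WTK. The share of all genes without a fold threshold was not counted, so these counts are a description only. At an unadjusted p under 0.05 (edgeR), in either direction, the main fit held 11364 of 19593 genes for IgGK against WTK. It held 6441 for LepK against IgGK and 9168 for LepK against WTK.

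Leaving out 1 library at a time gave 0 to 1 higher and 5 to 6 lower of the 10 genes for IgGK against WTK (pathway 9 to 11 and 19 to 22), 4 to 4 and 0 to 0 for LepK against IgGK (pathway 4 to 11 and 1 to 3), 1 to 3 and 2 to 4 for LepK against WTK (pathway 6 to 8 and 9 to 14), 0 to 2 and 0 to 2 for LepL against IgGL (pathway 0 to 8 and 0 to 6) and 2 to 3 for the organ difference. Calls over all genes for LepL against IgGL were 1937 higher and 1602 lower without the first IgGL library. Without any other single lung library they were 0 to 18 higher and 0 to 4 lower. Beyond these constructions the cause of the changes was not tested. Depth limits *Kl*, *Casr* and *Cyp27b1* in the lung: without the first IgGL library the *Casr* groups compare 0 counts with 7 to 30 and the fitted value is no bound.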
